A study of Mus musculus with 6 samples.

Results

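The MiT family of transcription factors has 4 members in the mouse genome, *Mitf*, *Tfeb*, *Tfe3* and *Tfec*, and all 4 were found by their gene symbols among the 54532 genes of the deposited expression table. RNA had been sequenced from GFP+ leukemia cells sorted from the bone marrow of mice with acute myeloid leukemia driven by RUNX1-ETO9a (RE9a), a truncated fusion of a blood transcription factor. The 3 *WT Phf6,RE9a* libraries (replicates 1, 2 and 3) came from *Phf6* fl/y cells, which carry the floxed allele without Cre. The 3 *VC Phf6,RE9a* libraries (replicates 11, 12 and 13) came from *Vav1-Cre;Phf6* fl/y cells, in which Cre from the blood cell promoter of *Vav1* deletes *Phf6*, a chromatin protein gene of chromosome X. Both groups were fetal liver cells of male mice transduced with an RE9a-GFP virus and passed serially through male recipients, so the leukemias share the fusion, the virus and the transplantation. Whether libraries came from different animals is not given in the labels, and the p-values therefore measure only the spread between these libraries.

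MiT proteins bind DNA as homodimers or heterodimers of each other through a basic helix-loop-helix leucine zipper. They recognize E-box words such as CACGTG and CATGTG. MITF is needed for melanocytes, mast cells and osteoclasts. TFEB and TFE3 drive the genes of lysosomes and autophagy, the CLEAR network, and are held in the cytoplasm by mTORC1 phosphorylation when amino acids are plentiful. TFEC is found mainly in macrophages.

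*Mitf* has 3 RefSeq start sites, *Tfeb* 3, *Tfe3* 2 and *Tfec* 1. The melanocyte isoform of *Mitf* starts from the one farthest downstream. The *Mitf* promoter sequences are shown because it was the member with the smallest p between the groups. They are the 240 bases that end 10 bases before each of its 3 RefSeq start sites (GRCm38.p6), with the cAMP response element word TGACGTCA in capitals.
Mitf start 97807058, chr6:97806808-97807047, plus strand: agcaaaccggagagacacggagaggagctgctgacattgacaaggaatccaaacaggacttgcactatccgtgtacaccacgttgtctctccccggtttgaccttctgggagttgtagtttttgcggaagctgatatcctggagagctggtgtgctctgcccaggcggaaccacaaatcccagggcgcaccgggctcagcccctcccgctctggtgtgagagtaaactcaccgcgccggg
Mitf start 97929817, chr6:97929567-97929806, plus strand: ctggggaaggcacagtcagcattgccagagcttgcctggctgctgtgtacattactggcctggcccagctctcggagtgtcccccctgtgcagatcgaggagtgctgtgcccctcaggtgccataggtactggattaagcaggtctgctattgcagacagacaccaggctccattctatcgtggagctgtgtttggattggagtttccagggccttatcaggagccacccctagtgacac
Mitf start 97991783, chr6:97991533-97991772, plus strand: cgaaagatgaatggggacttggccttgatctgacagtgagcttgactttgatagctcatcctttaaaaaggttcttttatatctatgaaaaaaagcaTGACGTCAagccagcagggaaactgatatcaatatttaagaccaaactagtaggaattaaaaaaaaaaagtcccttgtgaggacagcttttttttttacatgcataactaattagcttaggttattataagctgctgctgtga
The most downstream window held TGACGTCA once, a word that stood in 1.79% of all 32851 promoter windows of 300 bases. None of the 9 windows of the 4 members held CACGTG or CATGTG on either strand (CACGTG is its own reverse complement, and CATGTG was also searched as CACATG), and the words stood in 7.15% and 14.2% of all windows. Counts per gene do not show which start was used.

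The libraries held 15675358 to 16817994 counts each, and a count of 3 was worth 0.175 to 0.204 CPM (counts scaled to a common library size). *Phf6* itself was at 64.3 ± 7.15 CPM with the gene intact and 20.3 ± 2.37 CPM after Cre (SD, n = 3) and fell (log2 fold change -1.66, adjusted p = 9.32e-05 from edgeR). All 4 members passed the filter on low counts that kept 14169 genes. Of those genes, 22.7% were lower and 21.5% higher in *VC Phf6,RE9a* cells at an adjusted p under 0.05 in edgeR's quasi-likelihood test, 44.2% in all. The groups did not overlap for 57.3% of the genes tested. The median log2 fold change of all genes was 0.01. Against that background, 2 of the 4 members were lower, 0 were higher, and 3 of 4 had groups that did not overlap.

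*Mitf* (ENSMUSG00000035158) spans 97807052 to 98021349 on the plus strand of chromosome 6 of GRCm38, where GENCODE M21 lists 8 transcripts. The *WT Phf6,RE9a* libraries held 2984, 1896 and 2003 of its reads, and the *VC Phf6,RE9a* libraries 1199, 1051 and 1197. On the scaled level these were 194, 129 and 121 CPM across *WT Phf6,RE9a* libraries and 70.8, 61.2 and 71.1 CPM across *VC Phf6,RE9a* libraries. All *VC Phf6,RE9a* libraries lay below all *WT Phf6,RE9a* libraries, and replicate 1 stood highest. *Mitf* fell (log2 fold change -1.13, SE 0.18, adjusted p = 0.0021 from edgeR). Without *WT Phf6,RE9a* replicate 1 the log2 fold change was -0.89 (adjusted p = 0.00137 from edgeR), and it passed the threshold in all 6 fits that left out 1 library, from -1.26 to -0.89. Of all genes tested, 21% had a larger absolute change. The only annotated gene that overlaps it, the pseudogene *Gm15531* on the opposite strand, had at most 3 counts in a library. In RNA from sorted cells, fewer cells of a type and less RNA per cell cannot be told apart.

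**Figure D1:**
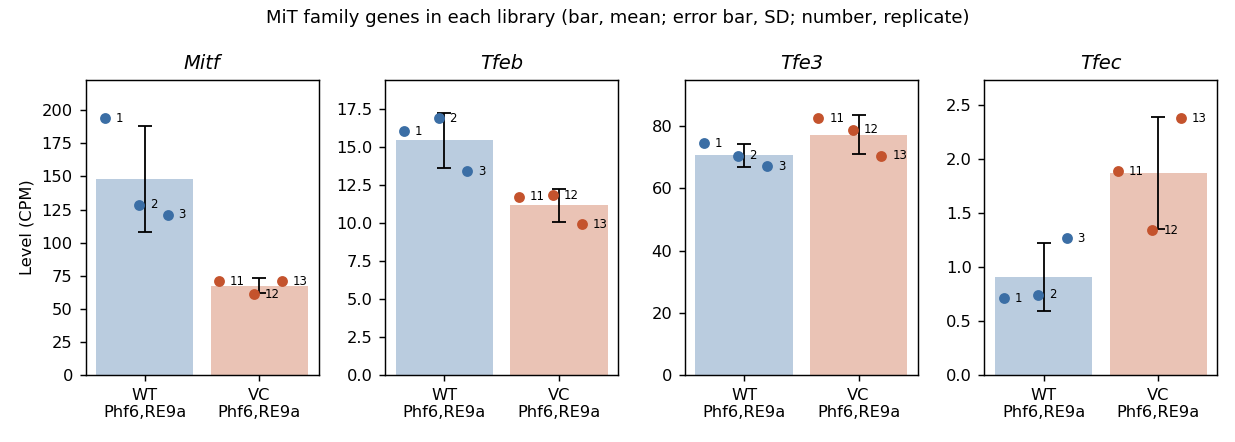
Level of the 4 MiT family genes in each library, in CPM on axes that start at 0, with 1 point a library (numbered by replicate), bars for the mean and error bars for the SD of 3 libraries. *Mitf* and *Tfeb* lie lower in all 3 *VC Phf6,RE9a* libraries, the groups of *Tfe3* overlap, and *Tfec* lies higher in *VC Phf6,RE9a* at a level of at most 2.38 CPM.

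*Tfeb* (ENSMUSG00000023990), a main activator of lysosomal genes, spans 47737030 to 47792419 on the plus strand of chromosome 17. It had 247, 249 and 222 counts among *WT Phf6,RE9a* libraries against 199, 203 and 167 among *VC Phf6,RE9a* libraries, or 16.0, 16.9 and 13.4 CPM across *WT Phf6,RE9a* libraries and 11.7, 11.8 and 9.92 CPM across *VC Phf6,RE9a* libraries. The groups did not overlap, although the lowest *WT Phf6,RE9a* library lay close to the highest *VC Phf6,RE9a* library. The fall was small and sat at the threshold (log2 fold change -0.47, SE 0.16, adjusted p = 0.049 from edgeR). It was past the threshold in 1 of the 6 fits that left out a library, the one without *WT Phf6,RE9a* replicate 3 (adjusted p = 0.0311 from edgeR), and the adjusted p ranged up to 0.152 in the others.

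*Tfe3* (ENSMUSG00000000134), the X-linked member that shares the lysosomal program with *Tfeb*, spans 7762560 to 7775202 on the plus strand of chromosome X. Its level was 74.3, 70.4 and 66.9 CPM across *WT Phf6,RE9a* libraries and 82.4, 78.7 and 70.3 CPM across *VC Phf6,RE9a* libraries, from 1037 to 1395 counts. The groups overlapped and the test was not passed (log2 fold change 0.13, SE 0.09, adjusted p = 0.29 from edgeR), nor was it under any of the alternatives, where the log2 fold change ran from 0.08 to 0.19. Of all genes tested, 82.0% had a larger absolute change.

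*Tfec* (ENSMUSG00000029553) spans 16833373 to 16898441 on the minus strand of chromosome 6. It had 11, 11 and 21 counts among *WT Phf6,RE9a* libraries and 32, 23 and 40 among *VC Phf6,RE9a* libraries. These came to 0.714, 0.746 and 1.27 CPM across *WT Phf6,RE9a* libraries and 1.89, 1.34 and 2.38 CPM across *VC Phf6,RE9a* libraries. The groups did not overlap, the highest *WT Phf6,RE9a* library lying just under the lowest *VC Phf6,RE9a* library, but the test was not passed (log2 fold change 1.02, SE 0.38, adjusted p = 0.0595 from edgeR). At these counts each value rests on few reads. The adjusted p fell to 0.0415 when at least 10 counts were asked of every library and to 0.0400 without *WT Phf6,RE9a* replicate 3. *Tfec* is best known from macrophages, whose 9 markers summed to 37.4 to 54.6 CPM across *WT Phf6,RE9a* libraries and 74.9 to 143 CPM across *VC Phf6,RE9a* libraries, and their part in the *Tfec* values was not tested.

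Levels of different genes can be compared per length, as FPKM (fragments scaled by gene length and library size). In every library the FPKM order was *Mitf*, *Tfe3*, *Tfeb* and *Tfec*. *Mitf* was at 31.3, 20.6 and 19.4 FPKM across *WT Phf6,RE9a* libraries and 11.3, 9.81 and 11.3 FPKM across *VC Phf6,RE9a* libraries, and *Tfe3* at 8.03, 7.54 and 7.15 FPKM against 8.78, 8.44 and 7.46 FPKM. *Tfeb* lay between 1.72 and 2.96 FPKM and *Tfec* between 0.128 and 0.417 FPKM over the 6 libraries, so no neighbours in the order overlapped within a group. By mean FPKM over the libraries, *Mitf* stood above 76.3% of the genes tested, *Tfe3* above 55.6%, *Tfeb* above 30.2% and *Tfec* above 4.01%.

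The order of the 2 leading members in *VC Phf6,RE9a* cells depended on the gene length. The table counts 6196 bases for *Mitf* and 9261 for *Tfe3*. With the longest annotated transcript of each gene, an alternative chosen after the values were seen, *Mitf* came to 14.3, 12.5 and 14.3 FPKM and *Tfe3* to 12.8, 12.3 and 10.9 FPKM in *VC Phf6,RE9a* libraries, and the 2 ranges overlapped. For *Tfe3* that transcript was a retained intron, and a further alternative with the longest coding transcript was then added. With it *Tfe3* came to 24.0, 23.1 and 20.4 FPKM, above *Mitf* in all 3 *VC Phf6,RE9a* libraries, while *Mitf* stayed above *Tfe3* in all 3 *WT Phf6,RE9a* libraries (24.6 to 39.7 against 19.5 to 21.9 FPKM). Which of the members was most abundant in *VC Phf6,RE9a* cells was therefore not settled by these values.

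The ratio of *Mitf* to *Tfe3* FPKM was 3.90, 2.73 and 2.71 across *WT Phf6,RE9a* libraries and 1.28, 1.16 and 1.51 across *VC Phf6,RE9a* libraries, and the groups did not overlap. A gene length changes this ratio by the same factor in both groups, whereas the shares of the family depend on it. With the table's lengths *Mitf* made up 68.8% ± 4.48 of the family's FPKM in *WT Phf6,RE9a* cells and 50.7% ± 3.17 in *VC Phf6,RE9a* cells (SD, n = 3), and *Tfe3* 22.6% and 38.6%. With the longest coding transcripts the shares were 51.5% and 32.7% for *Mitf* and 36.2% and 53.6% for *Tfe3*. With the table's lengths the share of *Tfeb* was 8.08% ± 1.39 and 9.14% ± 0.92 and overlapped between the groups. The sum of the family was 34.2 ± 7.07 FPKM in *WT Phf6,RE9a* cells and 21.3 ± 1.01 FPKM in *VC Phf6,RE9a* cells. The exact 2-sided permutation test gave p = 0.1 for the *Mitf* share, the *Tfe3* share and their ratio (0.122 after Benjamini-Hochberg adjustment over 11 comparisons), which is the smallest that 3 against 3 libraries allow, so none of these could pass 0.05.

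**Figure D2:**
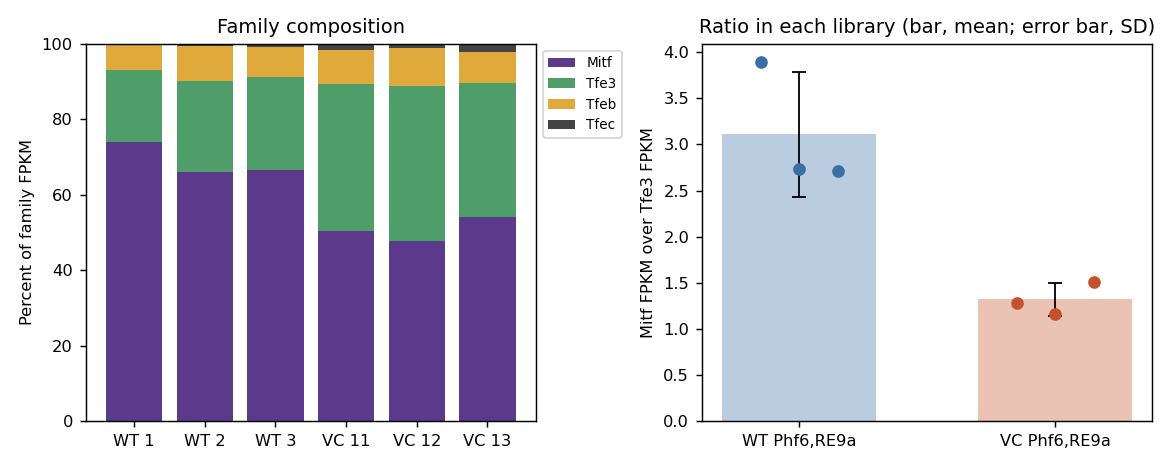
Share of each member in the summed FPKM of the family in each library (left, percent, with the authors' gene lengths), and the ratio of *Mitf* to *Tfe3* FPKM (right, points for libraries, bars for means, error bars for the SD of 3). The *Mitf* share is 66.0% to 74.0% across *WT Phf6,RE9a* libraries and 47.7% to 54.0% across *VC Phf6,RE9a* libraries, and the ratio falls from between 2.71 and 3.90 to between 1.16 and 1.51.

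The 3 genes whose centred log2 CPM profile over the 6 libraries lay nearest to that of *Mitf* were *Nfkb2*, *Adgre5* and *Pde4d*, at root mean square differences of 0.098, 0.098 and 0.10. *Nfkb2*, which encodes the p100 precursor of NF-κB, had 203, 146 and 119 CPM across *WT Phf6,RE9a* libraries and 80.9, 74.4 and 79.5 CPM across *VC Phf6,RE9a* libraries. For *Tfeb* they were *Unc119*, *Arhgap17* and *Aamp*, for *Tfe3* *Mtor*, *1110059G10Rik* and *Opa3*, and for *Tfec* *4921515L22Rik*, *Gm29093* and *Cgref1*. *Mtor*, the kinase whose complex phosphorylates TFEB and TFE3, lay 0.038 from *Tfe3* and, like it, did not pass the test (log2 fold change 0.10, SE 0.08, adjusted p = 0.353 from edgeR). These likenesses rest on 6 libraries of 2 groups and describe the profiles.

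Of the 14 MITF targets known from mast cells, 11 passed the filter on low counts and 10 were lower after *Phf6* deletion and 0 higher, where 22.7% of all genes tested were lower. The median log2 fold change of the 11 was -4.89. The list was chosen with earlier results of these data known, so the contrast with all genes tested is no independent result. *Kit*, the receptor of stem cell factor, had 2686, 2697 and 1876 CPM across *WT Phf6,RE9a* libraries and 217, 352 and 251 CPM across *VC Phf6,RE9a* libraries (log2 fold change -3.15, SE 0.23, adjusted p = 7.75e-05 from edgeR). *Cma1*, the chymase of mast cell granules, had 3897, 4569 and 2428 CPM across *WT Phf6,RE9a* libraries and 53.3, 77.0 and 87.7 CPM across *VC Phf6,RE9a* libraries (log2 fold change -5.64, SE 0.32). The tryptase gene *Tpsb2* had 3407, 3949 and 2305 CPM across *WT Phf6,RE9a* libraries and 0.413, 50.9 and 2.14 CPM across *VC Phf6,RE9a* libraries, so that replicate 12 stood apart from the other *VC Phf6,RE9a* libraries (log2 fold change -7.49, SE 1.46). Its log2 fold change ran from -11.3 to -6.92 when 1 library was left out, the larger value without replicate 12, and all of these fits passed the threshold. *Tpsab1* and *Tpsb2* both encode tryptases, and whether the counting shared reads between them was not tested.

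The remaining mast cell targets spread widely. *Gzmb*, granzyme B, had 717, 166 and 186 CPM across *WT Phf6,RE9a* libraries and 1.54, 0.874 and 0.356 CPM across *VC Phf6,RE9a* libraries (log2 fold change -8.58, SE 0.85), and the log2 fold change was -7.57 without *WT Phf6,RE9a* replicate 1, the library with the highest level. *Hpgds*, the prostaglandin D synthase, had 30.3, 32.1 and 18.5 CPM across *WT Phf6,RE9a* libraries and 0.768, 1.11 and 0.832 CPM across *VC Phf6,RE9a* libraries (log2 fold change -4.89, SE 0.30). *Tpsab1* (-6.27), the chymase *Mcpt4* (-6.04), the serotonin synthesis enzyme *Tph1* (-2.58) and the heparin-modifying enzyme *Ndst2* (-1.19, SE 0.13) fell on the log2 scale as well. The log2 fold change of *Tpsab1* was -7.75 without *VC Phf6,RE9a* replicate 12 and that of *Mcpt4* -5.33 without *WT Phf6,RE9a* replicate 1, and all fits of *Gzmb*, *Tpsab1* and *Mcpt4* that left out 1 library passed the threshold. The integrin gene *Itga4* did not pass the test, with 474, 456 and 502 CPM across *WT Phf6,RE9a* libraries and 431, 496 and 459 CPM across *VC Phf6,RE9a* libraries (log2 fold change -0.05, SE 0.09, adjusted p = 0.704 from edgeR). *Mcpt9*, *Ngfr* and *Cadm1* had too few counts to be tested.

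Mast cell markers moved with these targets. Of 11 markers, 10 were lower, 0 higher (22.7% and 21.5% of all genes tested), and *Ms4a2* did not pass the threshold, and 5 of the markers are also on the target list. Their summed level was 21477 to 35154 CPM across *WT Phf6,RE9a* libraries and 6226 to 6849 CPM across *VC Phf6,RE9a* libraries. Granulocyte markers went the other way, 9 of 9 higher, from 161 to 514 CPM in *WT Phf6,RE9a* to 1005 to 3589 CPM in *VC Phf6,RE9a* libraries, and so did 6 of 6 erythroid markers (21.5% of all genes tested were higher), from 1351 to 2080 CPM to 4723 to 5528 CPM. B cell markers were at 0.61 to 1.10 and 8.50 to 24.6 CPM. The fall was not limited to the mast cell list. Of 6 basophil markers, 4 were lower and 1 higher (22.7% and 21.5% of all genes tested), and 2 of the 6 are also mast cell markers. Basophil markers summed to 2008 to 2306 CPM across *WT Phf6,RE9a* libraries and 1289 to 1782 CPM across *VC Phf6,RE9a* libraries. The part of these other cell types in the values of *Mitf* and its targets was not tested.

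**Figure D3:**
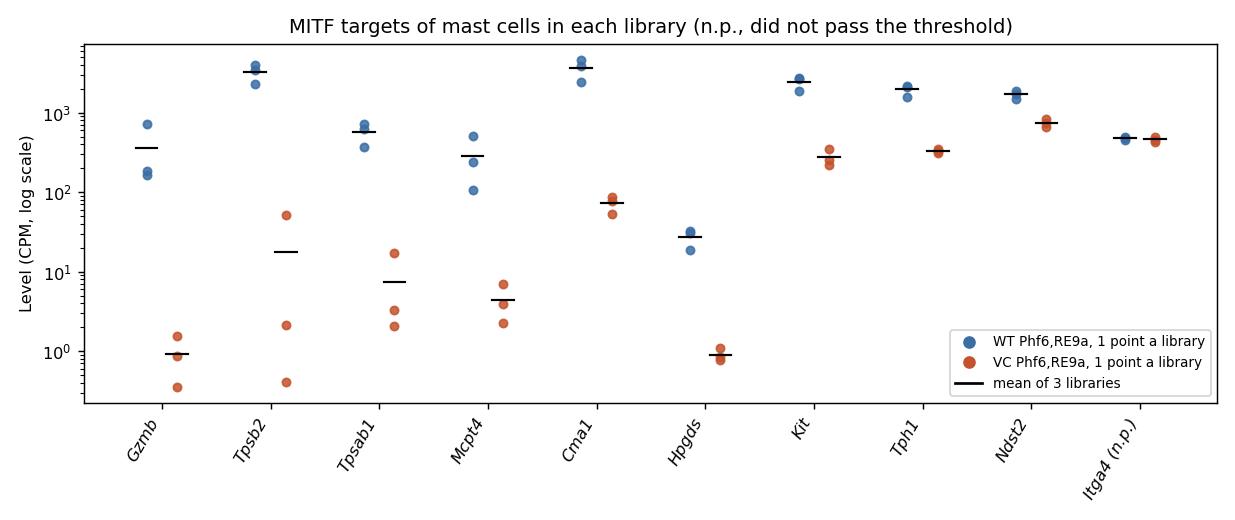
Level of 10 of the 11 tested mast cell targets of MITF in each library, in CPM on a log axis, ordered by log2 fold change, with 1 point a library and a line for the mean of 3. For all plotted genes but *Itga4*, every *VC Phf6,RE9a* library lies below every *WT Phf6,RE9a* library, and *Tpsb2* spreads from 0.413 to 50.9 CPM in *VC Phf6,RE9a*.

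Of 7 osteoclast and macrophage targets, 4 were tested and 1 was higher, where 21.5% of all genes tested were higher. It was *Acp5*, the tartrate-resistant acid phosphatase, with 70.2, 54.6 and 107 CPM across *WT Phf6,RE9a* libraries and 403, 363 and 383 CPM across *VC Phf6,RE9a* libraries (log2 fold change 2.31, SE 0.23, adjusted p = 0.000234 from edgeR). *Clcn7* and *Ostm1*, which form a lysosomal chloride exchanger, and *Atp6v0d2* did not pass the test. *Dcstamp*, *Ocstamp* and *Calcr*, defining genes of osteoclasts, had 0 counts in all 6 libraries, which allows at most 0.204 CPM in a library. Of 11 melanocyte genes, 7 had 0 counts in all libraries, among them *Tyr*, *Tyrp1*, *Sox10* and *Pax3*, and 9 had at most 3 counts in any. *Pmel* and *Slc24a5*, the other 2, lay between 0.678 and 2.92 CPM and did not pass the test, while *Mitf* itself had at least 1051 counts in each library.

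The CLEAR network is named for the E-box in the promoters of lysosomal genes. Sites of 26 bases, 1 a gene, are shown for some of the genes described here and not for all that held a word. They are network genes, the regulators *Rragc* and *Fnip1*, the mast cell target *Hpgds* and the osteoclast target *Acp5*, and *Ctsd* and *Lamp1* are the 2 among them that did not pass the test. They are printed with CACGTG or CATGTG, or its reverse complement CACATG, in capitals, 5′ to 3′ on the gene's strand, from RefSeq windows of GRCm38.p6.
Sgsh, chr11:119355524-119355549, minus strand: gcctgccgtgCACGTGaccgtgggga
Naglu, chr11:101070011-101070036, plus strand: accttcaggtCACGTGgcccgaggtc
Glb1, chr9:114401020-114401045, plus strand: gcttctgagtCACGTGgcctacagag
Ctsf, chr19:4855076-4855101, plus strand: ccccgtggtcCACGTGcctcgcgtaa
Ctsd, chr7:142387910-142387935, minus strand: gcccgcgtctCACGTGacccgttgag
Lamp1, chr8:13159090-13159115, plus strand: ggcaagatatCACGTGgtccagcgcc
Mcoln1, chr8:3500438-3500463, plus strand: tcgcgcttgtCACGTGttcagttcag
Vps26a, chr10:62486972-62486997, minus strand: cacggctcgtCACGTGacaactagct
Hif1a, chr12:73907722-73907747, plus strand: cacagacaagCACGTGagcggggcag
Rragc, chr4:123917311-123917336, plus strand: tgattccgggCACGTGatagtaccac
Fnip1, chr11:54438094-54438119, plus strand: agtttgctgcCACGTGatacggctcg
Hpgds, chr6:65144795-65144820, minus strand: tcgtgcatctCATGTGagaaaggcag
Acp5, chr9:22130673-22130698, minus strand: gtccagtgctCACATGacccaagggg
CACGTG was found in 9 of 17 windows of the lysosomal hydrolases (52.9%), against 7.15% of all windows, in 5 of 15 of the lysosomal membrane proteins and in 0 of 12 of the mast cell targets. The network is named for this E-box, so a high share among its hydrolases was given by the choice of list and is no separate result. Only 15 of the 21 hydrolases and 10 of the 14 mast cell targets had a window. With the word in 7.15% of all windows, 0 of 12 is near the background. Among all genes tested with a window, 25.9% of the 1141 with CACGTG were lower and 18.1% higher, and of the 8578 without it 24.1% were lower and 23.3% higher. A match describes these letters and not a bound site.

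All 21 lysosomal hydrolases of the list were tested, 12 were lower and 3 higher, and their median log2 fold change was -0.56. Among all genes tested, 22.7% were lower and 21.5% higher. The acid ceramidase *Asah1* had 69.6, 68.7 and 71.5 CPM across *WT Phf6,RE9a* libraries and 33.9, 33.7 and 37.7 CPM across *VC Phf6,RE9a* libraries (log2 fold change -0.99, SE 0.09, adjusted p = 0.000142 from edgeR). *Sgsh* (-2.08) and *Naglu* (-2.40), which degrade heparan sulfate, and the beta-galactosidase *Glb1* (-1.72) also fell on the log2 scale, and these 3 were named after their values were seen. Among the most abundant hydrolase genes per length, the saposin precursor *Psap* fell (log2 fold change -0.41, SE 0.11, adjusted p = 0.0187 from edgeR), and the protease *Ctsd* did not pass the test (log2 fold change -0.25, SE 0.11, adjusted p = 0.0876 from edgeR).

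The opposite direction was taken by *Ctsf*, *Galns* and *Scpep1*. *Ctsf*, a cysteine protease, had 3.77, 5.43 and 4.42 CPM across *WT Phf6,RE9a* libraries and 97.7, 123 and 83.8 CPM across *VC Phf6,RE9a* libraries, and rose (log2 fold change 4.48, SE 0.20, adjusted p = 1.92e-05 from edgeR). *Galns*, a sulfatase of keratan sulfate, and the carboxypeptidase *Scpep1* rose by 0.89 and 1.49 on the log2 scale. Of the 9 tested hydrolases with CACGTG in a window, 6 were lower and 1 higher, and of the 6 without it 3 were lower and 1 higher, so lower genes stood in both sets.

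**Figure D4:**
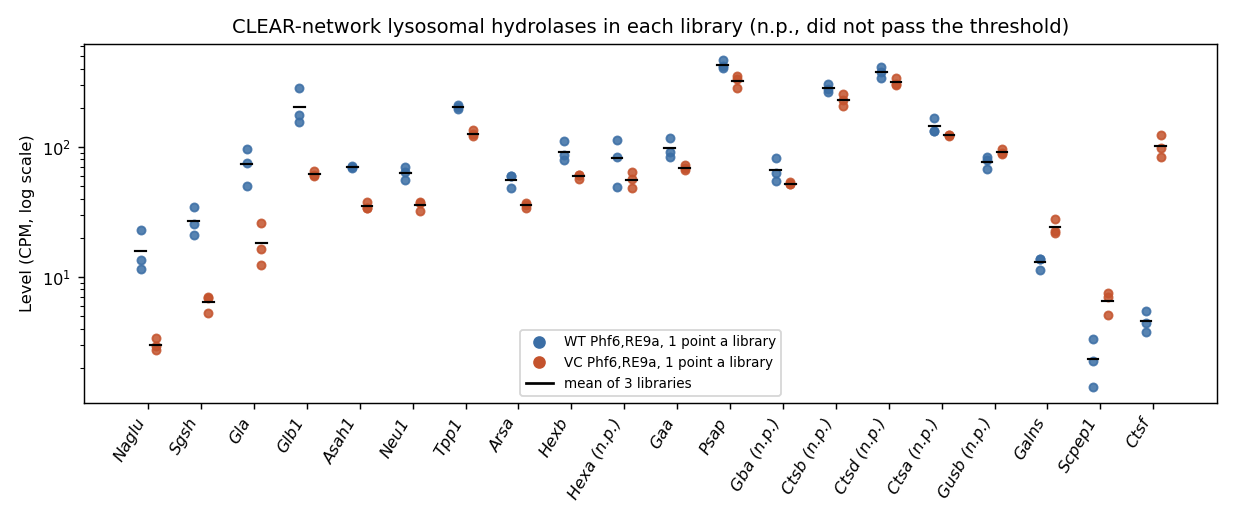
Level of 20 of the 21 CLEAR-network hydrolases in each library, in CPM on a log axis, ordered by log2 fold change, with 1 point a library and a line for the mean of 3. The values fall from 11.6 to 22.7 CPM to 2.74 to 3.37 CPM for *Naglu* at the left, and rise from 3.77 to 5.43 CPM to 83.8 to 123 CPM for *Ctsf* at the right.

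Of 13 lysosomal membrane proteins tested, 4 were lower and 1 higher (median log2 fold change -0.12), beside 22.7% lower and 21.5% higher among all genes tested. *Lamp2*, a lysosomal membrane glycoprotein, had 198, 213 and 188 CPM across *WT Phf6,RE9a* libraries and 130.5, 126 and 128 CPM across *VC Phf6,RE9a* libraries (log2 fold change -0.64, SE 0.08, adjusted p = 0.000693 from edgeR). The calcium channel *Mcoln1* (-0.55), *Cln3* (-0.53) and the cystine transporter *Ctns* (-0.50) fell on the log2 scale too, *Cd68* rose by 0.58, and *Lamp1* did not pass the test (log2 fold change 0.19, SE 0.08, adjusted p = 0.101 from edgeR). Of 15 subunits and accessory proteins of the vacuolar ATPase, which acidifies lysosomes, 6 were lower and 2 higher (median -0.17). *Atp6v0d1* had 161, 162 and 134 CPM across *WT Phf6,RE9a* libraries and 89.0, 96.4 and 86.7 CPM across *VC Phf6,RE9a* libraries (log2 fold change -0.75, SE 0.10, adjusted p = 0.000885 from edgeR), and *Atp6v1h* and *Atp6v0c* fell by 0.57 and 0.71 on the log2 scale. The count of membrane genes past the threshold was 3 without *WT Phf6,RE9a* replicate 1, without replicate 11 and without replicate 12, and that of ATPase genes was 5 without replicate 11.

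Autophagy and vesicle genes of the network were lower in 11 of 16 cases, with 0 higher and a median log2 fold change of -0.53. Among all genes tested, 22.7% were lower and 21.5% higher. *Sqstm1*, the p62 receptor that carries cargo to autophagosomes, had 1629, 961 and 618 CPM across *WT Phf6,RE9a* libraries and 275, 222 and 233 CPM across *VC Phf6,RE9a* libraries (log2 fold change -2.14, SE 0.32, adjusted p = 0.0016 from edgeR). *Hif1a*, the hypoxia-inducible factor, had 216, 361 and 202 CPM across *WT Phf6,RE9a* libraries and 75.3, 86.3 and 75.6 CPM across *VC Phf6,RE9a* libraries (log2 fold change -1.72, SE 0.22, adjusted p = 0.000726 from edgeR). *Vps26a* of the retromer fell by 0.76, the Beclin partner *Uvrag* by 0.83 and *Gabarap*, which conjugates to autophagosome membranes, by 0.58 on the log2 scale. Of all 16, 11 had *VC Phf6,RE9a* libraries all below *WT Phf6,RE9a* libraries, 1 had them all above and 4 overlapped, where 57.3% of all genes tested did not overlap.

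Genes of mTORC1, which phosphorylates MiT proteins, and of its regulators were measured as well. Of 17 tested, among them the Rag GTPases and folliculin, 6 were lower and 2 higher (median log2 fold change -0.18). The 8 called stand beside 44.2% called among all genes tested, so this count is near the background. *Flcn*, folliculin, had 135, 157 and 90.9 CPM across *WT Phf6,RE9a* libraries and 53.8, 58.4 and 55.1 CPM across *VC Phf6,RE9a* libraries (log2 fold change -1.20, SE 0.19, adjusted p = 0.00178 from edgeR), and was named after its value was seen. Its partner *Fnip1* (-1.18, SE 0.16), the mTORC1 scaffold *Rptor* (-0.81, SE 0.12) and the GTPase *Rragc* (log2 fold change -0.76, SE 0.08, adjusted p = 0.000378 from edgeR) fell on the log2 scale. *Lamtor1* and *Lamtor3* were the other 2 lower genes. *Slc38a9*, the lysosomal arginine sensor, had 112, 159 and 102 CPM across *WT Phf6,RE9a* libraries and 235, 261 and 264 CPM across *VC Phf6,RE9a* libraries, and rose (log2 fold change 1.02, SE 0.16, adjusted p = 0.0021 from edgeR), as did *Lamtor5*, by 0.52. *Lamtor2* and *Mtor* did not pass the test.

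Among 18 tested kinases, calcineurin subunits, cytoplasmic anchors and exporters that act on MiT proteins, 5 were lower and 0 higher (median log2 fold change -0.18), and the share lower is near the 22.7% of all genes tested. *Map4k3*, a kinase of amino acid sensing, had 48.0, 50.1 and 35.2 CPM across *WT Phf6,RE9a* libraries and 15.4, 14.7 and 15.7 CPM across *VC Phf6,RE9a* libraries (log2 fold change -1.54, SE 0.15, adjusted p = 0.000235 from edgeR). The calcineurin subunits *Ppp3r1* and *Ppp3ca*, of the phosphatase that releases TFEB to the nucleus, fell by 0.47 and 0.52 on the log2 scale. The anchor genes *Ywhaz* and *Ywhae* were the most abundant per length and did not pass the test. The count was 3 in each of the fits without *WT Phf6,RE9a* replicate 1, *VC Phf6,RE9a* replicate 11, replicate 12 or replicate 13.

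Of 11 tested partners and cofactors of MITF, 5 were lower and 1 higher (median log2 fold change -0.17). Among all genes tested, 22.7% were lower and 21.5% higher, 44.2% in all. *Nfatc1*, which acts with MITF in osteoclasts, had 121, 119 and 119 CPM across *WT Phf6,RE9a* libraries and 48.5, 49.6 and 44.8 CPM across *VC Phf6,RE9a* libraries (log2 fold change -1.33, SE 0.08, adjusted p = 3.73e-05 from edgeR). *Fos*, a component of AP-1, had 4897, 7154 and 4129.6 CPM across *WT Phf6,RE9a* libraries and 1750.4, 1380.0 and 1297 CPM across *VC Phf6,RE9a* libraries (log2 fold change -1.87, SE 0.23, adjusted p = 0.000614 from edgeR). *Stat3* fell by 0.71, *Gata2*, a partner of MITF in mast cells and basophils, by 0.71 and *Crebbp* by 0.44 on the log2 scale, *Ep300* rose by 0.36, and *Spi1* did not pass the test (log2 fold change 0.20, SE 0.12, adjusted p = 0.207 from edgeR). Of 9 tested factors of other basic helix-loop-helix leucine zipper families, 2 were lower (*Mlxip*, -1.08, and *Usf2*, -0.41, on the log2 scale) and 2 higher, with a median of 0.05, near the 22.7% and 21.5% of all genes tested. *Myc* had 65.7, 74.2 and 137 CPM across *WT Phf6,RE9a* libraries and 258, 255 and 285 CPM across *VC Phf6,RE9a* libraries (log2 fold change 1.53, SE 0.26, adjusted p = 0.00265 from edgeR), and *Tfap4* rose by 0.70.

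**Figure D5:**
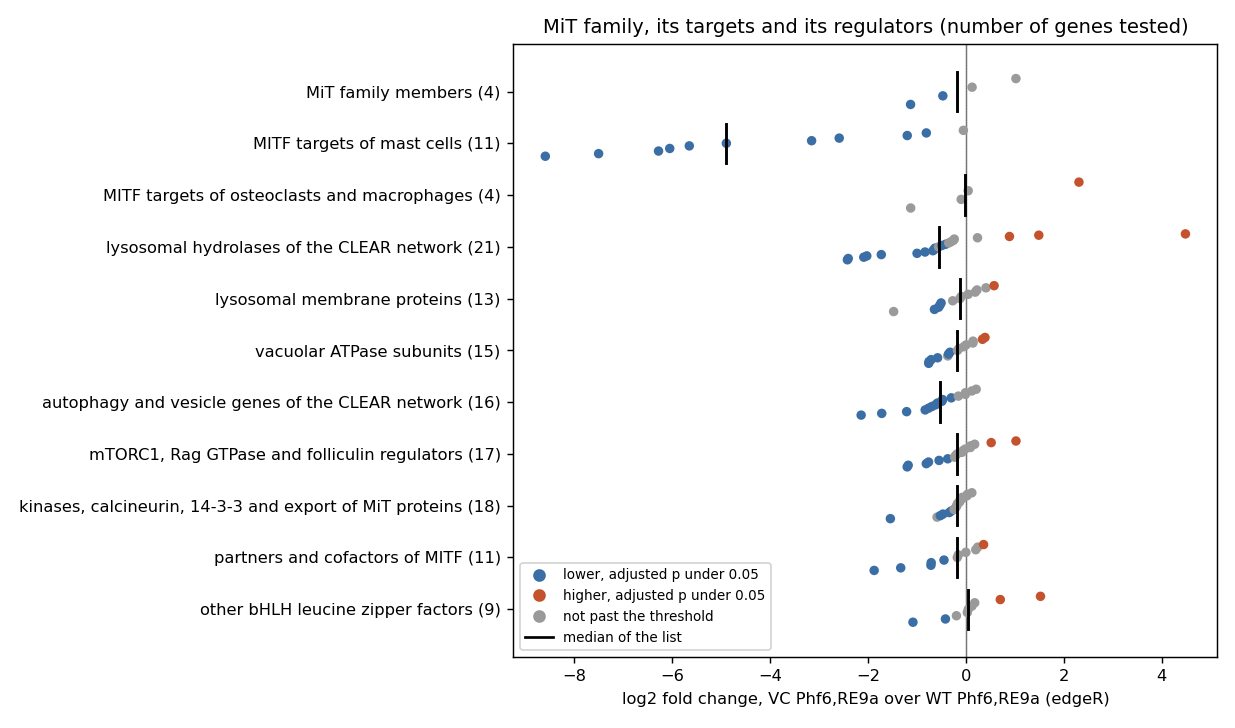
Log2 fold change (*VC Phf6,RE9a* relative to *WT Phf6,RE9a*) for each tested gene of the family, its targets and its regulators, with 1 point a gene, colored by edgeR's call, a black bar for the median of each list and a grey line for the median of all genes (0.01). Mast cell targets have a median of -4.89, and the medians of the other target and regulator lists lie between -0.56 and 0.05.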

How the data were processed

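The table that the authors deposited gives unnormalized whole-number counts for each Ensembl gene. It also gives the authors' FPKM, which equal the count over the table's gene length and a library size proportional to the size factor of DESeq2. Per the labels, the processing notes name Bowtie 0.12.0 and mm8 with no role given, while the table's coordinates are those of GRCm38 (98.3% of the 54409 genes found in GENCODE M21 had the same start and end). The counter, annotation release and strand setting are not given in the sources used here. The authors' own comparison columns (mean normalized counts, fold changes, p-values) were not used.

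In R 4.3.3, low genes were removed by filterByExpr of edgeR 4.0.16, and the groups were compared by its quasi-likelihood test after TMM scaling, with Benjamini-Hochberg adjustment over 14169 genes at 0.05. An SE is the absolute log2 fold change over the square root of F. CPM used TMM library sizes. Profiles used log2 CPM with a prior count of 2. Shares of FPKM were compared by exact permutation. Total counts were 15675358 to 16817994. The SE includes the spread between libraries of a group as well as counting error, and an SD is the spread between libraries. Libraries of a group differed beyond counting noise (chi-square per gene 10.7 to 41.3). On simulated counts of 13923 genes, the test recovered 54 of 99 genes changed 2-fold and 80 of 97 changed 4-fold, with 10 false calls. Far fewer genes were changed there than the 44.2% called in the data, so these rates need not hold for the data. Alternatives were DESeq2 1.42.0, RLE factors, no filter, a minimum of 10 counts per library, limma 3.58.1 on log2(FPKM + 1), each library left out, and 2 other gene lengths. Figures used matplotlib 3.10.9.

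The members and lists were chosen with earlier results of these data known. Named are the members, *Phf6*, the mast cell targets, in each other list the 3 smallest p and the 2 highest FPKM, in marker lists the highest genes and those at 0, and the 3 genes most like each member. Other genes named were chosen after their values were seen. The values of 2 listed genes are not reported here, and list counts and medians include them.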

Additional observations from a re-analysis of the deposited data

How the results depend on the processing

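*Mitf* passed the threshold under every alternative run (log2 fold change -1.26 to -0.89), and *Tfe3* under none. *Tfeb* did not pass without a count filter (log2 fold change -0.47, adjusted p = 0.0835), with at least 10 counts in every library (-0.46, 0.0521) or with limma on log2(FPKM + 1) (-0.33, 0.0588), and ran from -0.57 to -0.39 with 1 library left out, where only the fit without *WT Phf6,RE9a* replicate 3 passed. *Tfec* passed with at least 10 counts in every library (1.03, adjusted p = 0.0415) and without *WT Phf6,RE9a* replicate 3 (1.34), and ran from 0.81 to 1.34 with 1 library left out. The *Tfeb* share of family FPKM moved from 1.07 points higher to 0.22 points lower in *VC Phf6,RE9a* cells (difference -0.22, exact permutation p = 0.9) with the longest coding transcript, a length chosen after the values were seen. With 1 library left out, genes past the threshold numbered 3 to 6 of the lysosomal membrane proteins, 5 to 8 of the vacuolar ATPase and 3 to 5 of the kinases and anchors. Genes near no change switched sign with 1 library left out. *Itga4* ran from -0.10 to 0.0055 (positive without *VC Phf6,RE9a* replicate 11), *Ostm1* from -0.18 to 0.0018 and *Laptm4a* from -0.25 to 0.12 (both positive without *WT Phf6,RE9a* replicate 2), *Clcn7* from -0.046 to 0.16 (negative without *WT Phf6,RE9a* replicate 3), *Atp6v0b* from -0.14 to 0.0086 (positive without *WT Phf6,RE9a* replicate 1), and *Srebf2* from -0.11 to 0.14 (negative without *WT Phf6,RE9a* replicate 2 or *VC Phf6,RE9a* replicate 13). *Lamtor2* ran from -0.13 to 0.22, and was 0.00014 with at least 10 counts in every library and 0.0070 with limma. The cause of these moves was not tested. All genes past the threshold numbered 4690 to 6470 with 1 library left out and 6260 with none. No paired analysis was possible because the groups share no replicate number. Depth limits *Tfec* most, at 11 to 40 counts a library.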
